A study of Mus musculus with 141 samples.

Results

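Transcripts of 9 amino acid transporter genes were followed through the first 72 h of CD4 T cell activation: Slc7a5, Slc3a2, Slc7a6, Slc7a11, Slc7a1, Slc1a5, Slc1a4, Slc38a1 and Slc38a2. They were taken by name from the 46517 genes of the deposited RNA sequencing table, and all 9 passed the filter on low values in both sets of cultures. Naive cells, defined as CD4+CD25-CD44lo, had been sort-purified from lymph nodes and spleen of the inbred mouse strain C57BL/6. The sources used here give no age, sex or pooling. Every culture was stimulated through the T cell receptor and its co-receptor with plate-bound αCD3 (0.5 µg/ml) and αCD28 (5 µg/ml), in medium to which L-glutamine and β-mercaptoethanol had been added. Courses 1 to 3 (the labels' replicate numbers) were grown without cytokines, the Th0 condition, or with IL6 (20 ng/ml) and TGFb (1 ng/ml), the pair that starts the Th17 fate of interleukin 17 producing helper cells. Courses 4 to 6 were grown with IL6 and TGFb plus IL1b (10 ng/ml), plus IL21 (20 ng/ml), or plus both, here called the 3 cocktails, and had no Th0 culture. Cells were taken when naive (0 h, separately for the 2 sets of courses) and at 9 times from 0.5 to 72 h, in 47 groups of 3 libraries. The labels speak of biological replicates without saying which mice they came from, so p-values measure only the spread between these libraries.

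A resting T cell needs few amino acids, and a dividing one imports them for protein synthesis, nucleotides and antioxidants. Slc7a5 (LAT1) is the light chain that carries large neutral amino acids such as leucine, and Slc7a6 (y+LAT2) and Slc7a11 (xCT) are light chains for basic and neutral amino acids and for cystine. All 3 need the heavy chain Slc3a2 (CD98, 4F2hc) to reach the cell surface. Slc7a1 (CAT1) carries arginine and lysine without a heavy chain, Slc1a5 (ASCT2) and Slc1a4 (ASCT1) exchange small neutral amino acids, glutamine in the case of Slc1a5, and Slc38a1 (SNAT1) and Slc38a2 (SNAT2) take up glutamine and other neutral amino acids together with sodium.

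Libraries held 16 to 47.1 M counted reads (median 25.4 M), so 1 read was worth 0.0212 to 0.0627 CPM (reads scaled to a library total of 1000000). Levels are TMM-scaled CPM ± SD of 3 libraries, where TMM is a scaling that sets aside genes of extreme change. Changes are given as log2 fold ± SE, estimated by limma on log2 of CPM plus 0.5, which understates the change of genes near 1 CPM, with p-values adjusted over all genes tested. The threshold for a call was an adjusted p of 0.05. These are shares of a library's RNA, and in such bulk samples fewer cells of a type and less RNA per cell cannot be told apart. All 9 T cell genes checked, among them Cd3e (166.6 to 678.8 CPM) and Cd4 (115 to 1210 CPM), were detected in every library. Of the marker lists of other cells, those of CD8 T cells, NK and γδ T cells, myeloid cells, and erythroid cells with platelets summed to at most 40.7, 34.3, 79.6 and 64.1 CPM. The B cell list reached 542.9 CPM, mostly through Ighm, an immunoglobulin gene, at 463.4 to 521.1 CPM in the 0 h libraries of courses 1 to 3. The Th0 libraries of course 1 at 48 h and at 72 h stood apart from those of courses 2 and 3: they differed from them by 120 to 134 and by 240 to 265 times Poisson noise, against 24.6 and 8.26 times between courses 2 and 3. Because the SE is pooled over all groups of the fit, it understates the spread of these 2 groups. For the same reason it can overstate the spread of evener groups, so a missing call at an earlier time does not show that nothing changed.

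The 9 genes lie on 7 mouse chromosomes, and none shares exon bases with another gene in the GENCODE M21 annotation (GRCm38). On that build Slc7a5 spans chr8:121881150-121907694 and Slc7a6 chr8:106168857-106198706. Slc3a2 spans chr19:8706882-8723369, Slc7a1 chr5:148327410-148399904, Slc7a11 chr3:49892526-50443614, Slc1a4 chr11:20302180-20332713 and Slc1a5 chr7:16781340-16798274. Slc38a1 (chr15:96571418-96642913) and Slc38a2 (chr15:96687392-96699730) are neighbours. Slc7a6 and Slc1a5 are on the plus strand and the other 7 on the minus strand.

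In naive cells the transporters differed widely in level. Per kilobase of annotated exon, Slc1a5 was the highest at 0 h of courses 1 to 3, at 113.3 ± 1.84 CPM per kb, followed by Slc38a2 (71.9 ± 4.80) and Slc3a2 (37.1 ± 0.81). Slc7a5, Slc7a1, Slc7a6 and Slc38a1 lay between 23.1 and 16.1 CPM per kb. Slc1a4 (0.64 ± 0.16) and Slc7a11 (0.126 ± 0.043) were close to silent. No neighbours in this order overlapped between their libraries, although the exon length counted for each gene affects its place. The summed level of all 9 was 1203, 1259 and 1212 CPM in the 3 libraries at 0 h.

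Stimulation without cytokines raised all 9 within 2 h. Their summed level reached 6539, 7083 and 7047 CPM at 2 h and 8308, 7644 and 8227 CPM at 4 h, then came down to 2138 ± 107 CPM at 24 h. At 2 h, 9 of 9 were higher than at 0 h, where 69.2% of all genes tested were called and 32.4% were higher. The members' median log2 change was 2.94, against -0.04 for all genes. At 6 h 8 were higher and 1 lower (72.4% of all genes called, 35% higher), at 24 h 7 were higher and 1 lower (72.7%, 35.9%), and at 72 h 4 were higher and 1 lower (65.3%, 33.2%). Without TMM scaling the share of higher calls among all genes at 2 h was 36.2% in place of 46.9%, with the median of all genes at -0.22, and the 9 members stayed called and higher. Markers of other cells moved with this. The summed level of 8 B cell markers was 492.9 to 542.9 CPM at 0 h and 65.1 to 92.6 CPM in Th0 at 2 h, and that of 10 myeloid markers was 62.5 to 67.6 CPM at 0 h and 29.6 to 36.2 CPM at 2 h. Their part in the rise of the transporters was not tested.

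**Figure D1:**
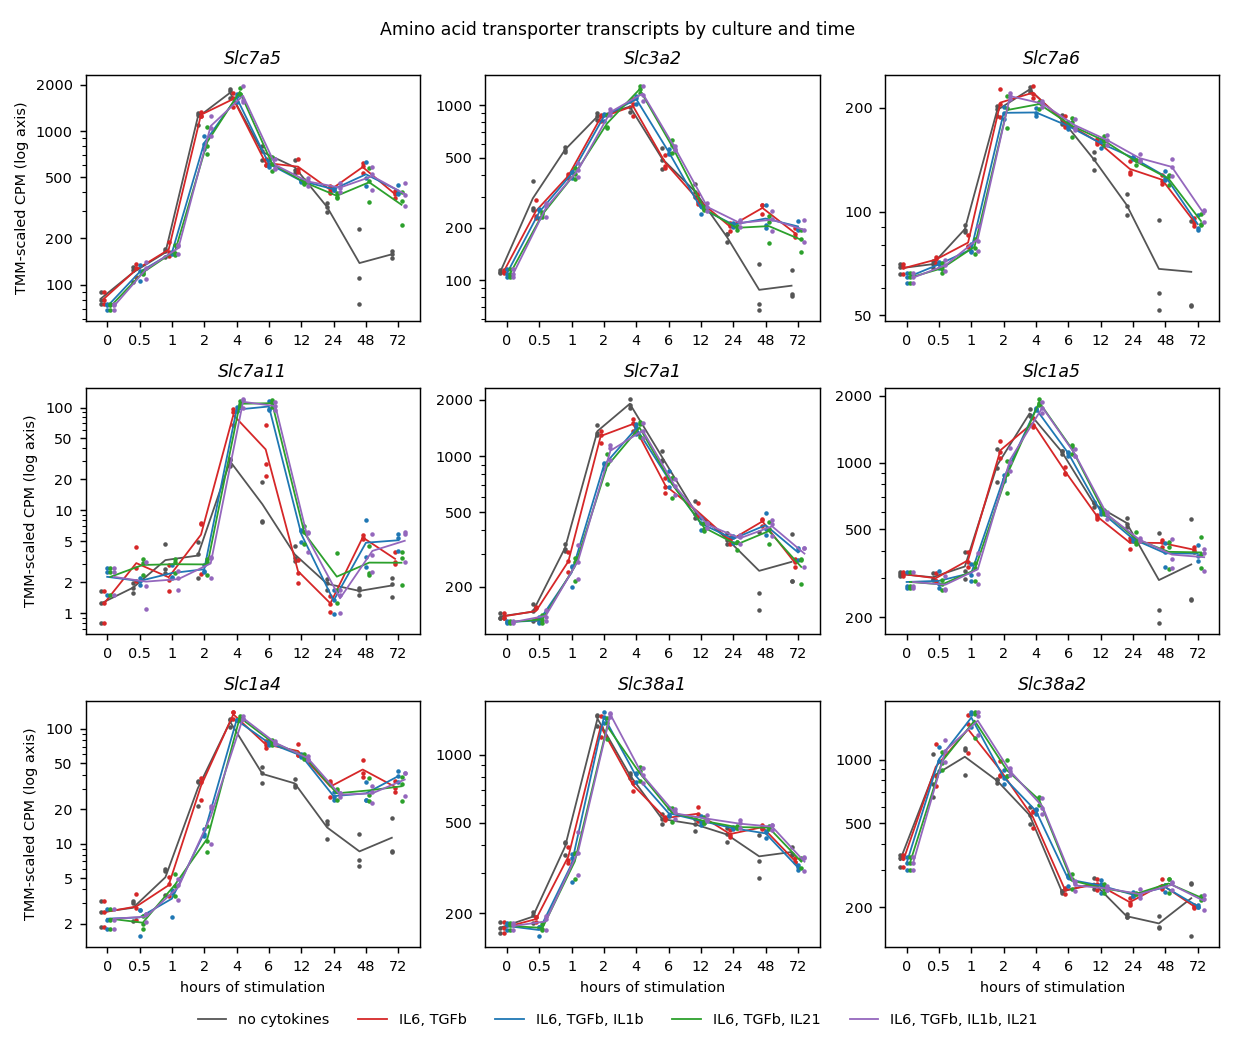
Level of each transporter transcript (TMM-scaled CPM, log axis) against hours of stimulation (spaced evenly), 0 h being the naive cells of the same courses; points are single libraries and lines join the means of 3, in grey without cytokines and in colour with each cytokine mix. Slc38a2 was highest at 1 h, Slc38a1 at 2 h and most others at 4 h, and the grey curves run below the coloured ones for Slc7a5, Slc3a2 and Slc1a4 at 48 and 72 h.

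The genes did not peak at the same time. By 0.5 h in Th0, Slc3a2 had risen from 37.1 ± 0.81 to 97.15 ± 21.2 CPM per kb. Slc38a2 had risen from 71.9 ± 4.80 to 178.6 ± 44.2 CPM per kb and was the earliest to peak. From 342.3, 353 and 310.1 CPM in naive cells it climbed to 1062, 769.8 and 665.1 CPM by 0.5 h, and the 1 h libraries held 1138, 844.7 and 1112 CPM. All 6 early libraries were above the 3 naive ones, with course 1 the highest at 0.5 h. In all 5 kinds of culture its highest mean was at 1 h, from 1032 ± 162 CPM in Th0 to 1582 ± 139 CPM with IL1b, though in Th0 and with IL6 and TGFb the libraries at 1 h overlapped those of a neighbouring time. From 6 h on every library of the Th0 cultures was below every naive one. It was lower by 0.49 ± 0.16 on the log2 scale at 6 h (adjusted p = 0.00447), a call lost without course 2 (-0.40, adjusted p = 0.0883) and without a filter on low values (-0.26, adjusted p = 0.205). At 24 h it was at 179.4, 185.9 and 180 CPM, a change of -0.88 ± 0.16 (adjusted p = 2.51e-06). At 72 h the change was -0.65 ± 0.16 (adjusted p = 0.000316), but -0.36 without course 1 and not called with only the libraries compared (adjusted p = 0.0695). No other member was called below 0 h at 24 or 72 h with all libraries in the fit. Without the course 1 Th0 library at 72 h, Slc1a5 (-0.38), Slc3a2 (-0.45) and Slc7a6 (-0.36) were called lower than at 0 h as well.

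Its chromosomal neighbour Slc38a1 peaked at the next time taken. It went from 162.6, 172.2 and 182.5 CPM to 1485, 1497 and 1337 CPM at 2 h, a log2 change of 3.06 ± 0.09 (adjusted p = 8.29e-29), and its highest mean was at 2 h in all 5 kinds of culture, with no overlap with the times before and after. It then came down in Th0 to 812.2 ± 20.6 CPM at 4 h, and at 72 h it was still above 0 h by 1.10 ± 0.09 (adjusted p = 2.82e-14).

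The leucine carrier Slc7a5 had the largest change of the 9 at 2 h. Naive cells held 74.8, 89.3 and 79.3 CPM, and the 1 h libraries 152.1, 165 and 169.6 CPM. At 2 h the values were 1090, 1313 and 1279 CPM, and at 4 h 1868, 1644 and 1811 CPM. Most of this climb fell between 1 and 2 h. The log2 change at 2 h was 3.92 ± 0.17 (adjusted p = 7.94e-23), a 15.1-fold rise. The arginine carrier Slc7a1 also climbed to 4 h, from 138.4 ± 4.68 CPM to 1361 ± 88.7 at 2 h (3.30 ± 0.18) and 1906 ± 110 CPM at 4 h. Slc7a6 moved least, with group means over all 47 groups between 64.2 and 226.3 CPM, a 3.52-fold range, although it rose at 2 h by 1.53 ± 0.13 (adjusted p = 3.1e-14).

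The heavy chain Slc3a2 was well above its naive level by 1 h, before most of the climb of its partner Slc7a5. At 1 h Slc3a2 was at 556.4, 580 and 537.5 CPM in Th0 against 110.2, 114.9 and 111.6 CPM at 0 h, while Slc7a5 was at 162.2 ± 9.05 CPM. Per kilobase, the ratio of Slc7a5 to Slc3a2 was 0.58, 0.67 and 0.61 in the naive libraries, 0.23, 0.24 and 0.27 at 1 h and 1.65, 1.54 and 1.48 at 4 h. The 3 times did not overlap. Per length, Slc3a2 was thus above Slc7a5 at 0 and 1 h and below it at 4 h. With IL6 and TGFb at 48 h the ratio was 1.93 ± 0.05. Counting Slc7a5, Slc7a6 and Slc7a11 together against Slc3a2, the ratio went from 1.12 ± 0.04 in naive cells to 0.38 ± 0.02 after 1 h of Th0 culture, and to 1.75 ± 0.09 after 4 h.

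**Figure D2:**
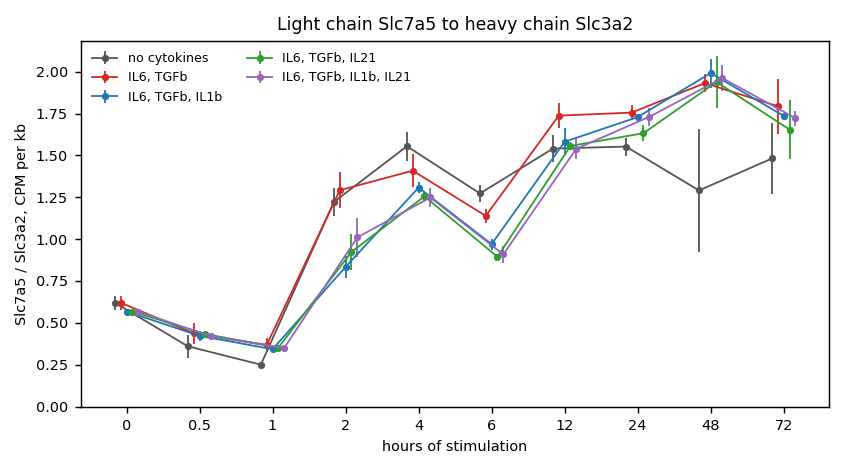
Ratio of Slc7a5 to Slc3a2 transcripts (CPM per kb of exon, linear axis from 0) against hours of stimulation, by culture, as mean ± SD of 3 libraries. The ratio was lowest at 1 h in every culture and above 1 at 4 h in every culture, and the widest error bars are those of the Th0 cultures at 48 and 72 h.

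The exchangers differed in size of change. Slc1a5, the most abundant per length at 0 h, held 308.5, 312.4 and 318.6 CPM there and 294.7, 297.2 and 317.1 CPM at 0.5 h, which overlapped. It reached 818.4, 946.3 and 1155 CPM at 2 h (1.63 ± 0.20, adjusted p = 7.55e-10) and 1667 ± 68.8 CPM at 4 h. Slc1a4 started at 1.88, 3.12 and 2.54 CPM and reached 21.4, 34.5 and 34.9 CPM at 2 h (3.35 ± 0.23, adjusted p = 5.09e-17) and 121.8, 104.4 and 120.7 CPM at 4 h. It was 46.0 times its naive mean there, against 5.32 times for Slc1a5, and yet Slc1a5 remained far above it per length at 4 h, at 603 ± 24.9 against 29.5 ± 2.48 CPM per kb.

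Slc7a11, the cystine carrier, stayed under 5 CPM for 2 h in Th0 and was then high for a short time. Naive libraries held 0.80, 1.26 and 1.66 CPM, the Th0 libraries 2.21, 3.77 and 4.91 CPM at 2 h and 27.01, 31.7 and 31.2 CPM at 4 h. By 6 h it was at 7.92, 7.71 and 18.7 CPM, with course 3 apart from the others, and by 24 h at 2.12, 1.69 and 1.97 CPM. The change from 0 h was 1.23 ± 0.33 at 2 h (adjusted p = 0.000977) and 2.69 ± 0.33 at 6 h (adjusted p = 8.23e-10). At 24 h it was 0.51 ± 0.33 (adjusted p = 0.163). Over all 47 groups its means ran from 1.24 to 113.6 CPM, a 91.6-fold range that was the widest of the 9, followed by Slc1a4 with 65.9-fold and Slc7a5 with 24.9-fold. This range runs from 0 h of courses 1 to 3 to a cocktail of courses 4 to 6. Against 0 h of its own courses, its peak was 24.2-fold in Th0 and 45.3- to 50.35-fold in the 3 cocktails. Slc1a4 peaked higher there, at 46.0-fold and 54.2- to 57.1-fold. With IL6 and TGFb the order was the other way, at 68.25-fold for Slc7a11 and 53.4-fold for Slc1a4.

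**Figure D3:**
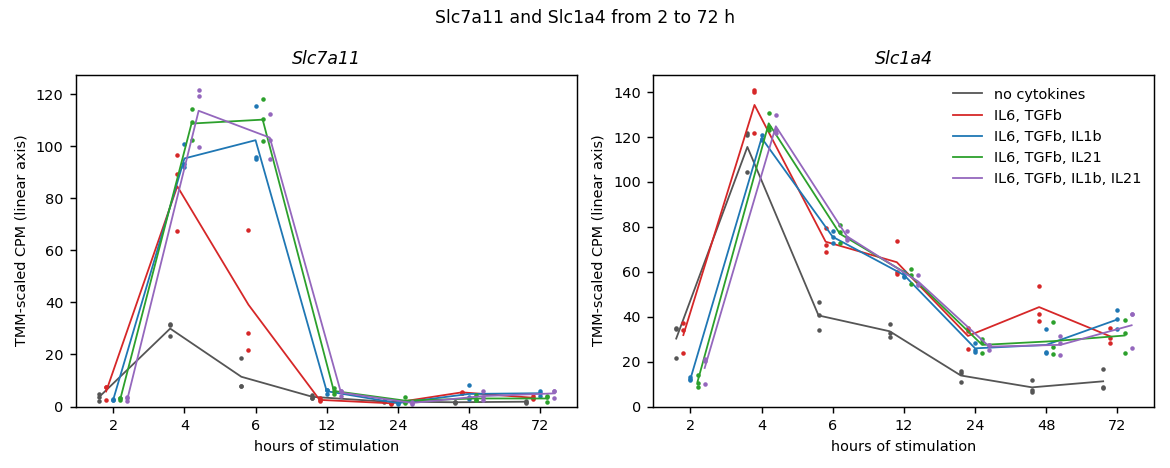
Levels of Slc7a11 (left) and Slc1a4 (right) in TMM-scaled CPM on linear axes against hours of stimulation from 2 h on (spaced evenly), by culture; points are single libraries and lines join the means of 3. Slc7a11 reached 29.95 CPM on average without cytokines at 4 h and 84.6 to 113.6 CPM with cytokines, and at each time from 6 h on every Slc1a4 point without cytokines lies below every point with IL6 and TGFb of the same time.

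Promoter sequence was at hand for 6 of the 9 genes, from RefSeq (GRCm38.p6), as 250 bases before to 50 after the start; Slc7a5, Slc1a5 and Slc38a1 had no entry. In these, 3 motifs were searched on both strands: CACGTG, the E-box that Myc and Max can bind, TGATGNAA, the composite element that C/EBP and ATF4 factors can bind in amino acid response genes, and TGACNNNGC, the core of the antioxidant response element. No match of one overlapped a match of another in these genes, and a match is only a match of letters. TGATGNAA was found in 2 of 6 genes, Slc7a11 and Slc1a4, and in 3.97% of 32851 promoters of this length. TGACNNNGC was found in 3 of 6, Slc7a1, Slc7a6 and Slc38a2, and in 12.4% of promoters. CACGTG was found in 0 of 6 and in 7.15% of promoters. The 6 genes had 8 promoters, so these counts of genes and shares of promoters are not on the same footing. Slc7a1 held TGACNNNGC in 1 of its 2 promoters, and the 2 promoters of Slc7a6 overlap and hold the same site. The windows shown run from 150 bases before the start to 20 after it, on the minus strand. They are those of the 2 genes with TGATGNAA and of Slc38a2, the earliest to peak. Any link between a motif and a change in level was not tested. Capitals mark TGATGCAA or its reverse complement in the first 2 and the match to TGACNNNGC in the third.
Slc7a11, chr3:50443594-50443763: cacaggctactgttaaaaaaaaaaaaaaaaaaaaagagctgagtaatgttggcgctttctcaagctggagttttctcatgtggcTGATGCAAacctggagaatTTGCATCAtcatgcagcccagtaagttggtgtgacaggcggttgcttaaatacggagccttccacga
Slc1a4, chr11:20332694-20332863: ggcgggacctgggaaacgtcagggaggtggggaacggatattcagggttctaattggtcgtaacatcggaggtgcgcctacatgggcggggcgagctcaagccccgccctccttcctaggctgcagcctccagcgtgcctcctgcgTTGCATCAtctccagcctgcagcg
Slc38a2, chr15:96699709-96699878: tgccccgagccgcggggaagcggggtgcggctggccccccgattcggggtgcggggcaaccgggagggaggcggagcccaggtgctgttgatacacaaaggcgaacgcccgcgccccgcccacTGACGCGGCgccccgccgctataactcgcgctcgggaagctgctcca
In Slc7a11 the 2 sites begin 66 and 47 bases before the start and lie on opposite strands, and in Slc1a4 the single site begins 4 bases before the start.

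The next question was what IL6 and TGFb added to stimulation. In the first 2 h few of these genes were called, and the number depended on the fit. With all groups in the fit and no block for course, at 0.5 h 0 of 9 were called (0.606% of all genes) and at 2 h 0 of 9 (12.4%), with 0 at an unadjusted p under 0.05 at either time in limma and 0 called by edgeR and by DESeq2. At 1 h, where 7.96% of all genes were called and 3.39% were lower, Slc3a2 was lower with cytokines. It was at 385.4, 392.8 and 406.8 CPM, all below the 556.4, 580 and 537.5 CPM of Th0, a change of -0.50 ± 0.14 (adjusted p = 0.0138). The call was lost without course 2 (-0.46, adjusted p = 0.259) without course 3 (-0.52, adjusted p = 0.195) and without a filter on low values (-0.47, adjusted p = 0.0558). Libraries of a course moved together at these 3 times. With a block for course and only the libraries compared, 2 members were called at 0.5 h, where 353 of 12482 genes tested were called, 3 at 1 h (2322 of 12240 genes) and 3 at 2 h (4149 of 11716). In that fit Slc38a2 was higher by 0.45 ± 0.06 at 1 h (adjusted p = 0.000179) and Slc1a5 by 0.27 ± 0.04 at 2 h (adjusted p = 0.000213).

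At 4 and 6 h Slc7a11 was higher with IL6 and TGFb. The 4 h libraries held 67.6, 96.8 and 89.4 CPM against 27.01, 31.7 and 31.2 CPM in Th0, a log2 change of 1.47 ± 0.33 (adjusted p = 0.00236). The 6 h libraries held 21.6, 28.1 and 67.7 CPM, a change of 1.68 ± 0.33 (adjusted p = 0.000382). Without course 2 these were 1.41 (adjusted p = 0.211) and 1.62 (adjusted p = 0.0943), and neither was called. The groups did not overlap at either time, and at 6 h course 3 was the high library in both cultures. Slc7a11 was the 1 member of 9 called at 4 h (4.4% of all genes called, 2.73% higher). At 6 h (4.61%, 2.84%) Slc1a4 was called too, and at 12 h (9.52%, 5.41%) Slc1a4 alone. With only the libraries compared, Slc7a1 (-0.46 ± 0.09, adjusted p = 0.00654) and Slc1a5 (-0.25 ± 0.05, adjusted p = 0.0115) were called lower at 6 h (1779 of 11765 genes called). In such a fit at 12 h Slc1a5 was lower (-0.17 ± 0.04, adjusted p = 0.0199) and Slc7a6 higher (0.20 ± 0.04, adjusted p = 0.0101), where 2539 of 11433 genes were called.

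Slc1a4 kept its difference from then on. At 6 h it was at 71.95, 68.9 and 79.3 CPM against 40.97, 33.98 and 46.7 CPM, a change of 0.86 ± 0.23 (adjusted p = 0.0137). It was 0.93 ± 0.23 higher at 12 h (adjusted p = 0.00344). Both calls were lost without course 2 (adjusted p = 0.259 and 0.0709) and without course 3 (0.255 and 0.159), with changes of 0.79 to 0.95. At 24 h it was at 25.6, 35.1 and 33.6 CPM against 11.02, 15.7 and 14.7 CPM, a change of 1.16 ± 0.23 (adjusted p = 8.3e-05), kept under every alternative run. Its libraries with and without cytokines did not overlap at 6, 12, 24, 48 or 72 h.

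At 24 h 2 of 9 were called (26.2% of all genes, 13.5% higher), Slc1a4 and Slc7a6, the latter at 0.34 ± 0.13 (adjusted p = 0.0407), a call lost without course 2, without course 3, without TMM scaling, without a filter and in DESeq2. With only the libraries compared 7 were called at 24 h, where 5302 of 11919 genes were, with Slc7a5 (0.36, adjusted p = 0.000501), Slc3a2 (0.19, adjusted p = 0.0157) and Slc38a2 (0.21, adjusted p = 0.011) higher and Slc1a5 (-0.30, adjusted p = 0.00207) and Slc7a11 (-0.498, adjusted p = 0.0362) lower. Libraries of a course moved together at 4 and 12 h as well. With a block for course and only the libraries compared, 4 members were called at 4 h (2557 of 11570 genes) and 6 at 12 h (4482 of 11433), in place of 1 and 1. In that fit Slc7a1 was lower by 0.34 on the log2 scale at 4 h (-0.34 ± 0.05, adjusted p = 2.63e-05).

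**Figure D4:**
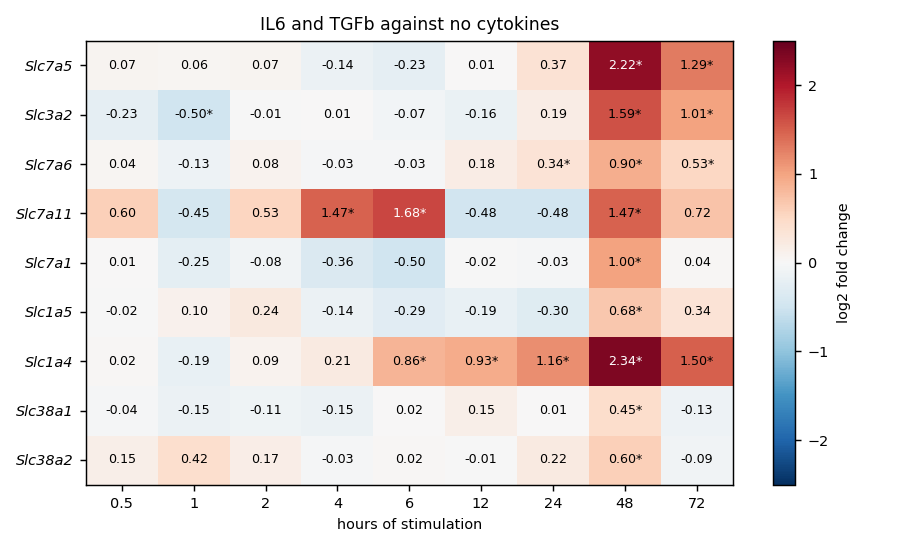
Log2 fold change of each transporter with IL6 and TGFb against no cytokines (colour and printed value) by hours of stimulation, from limma; an asterisk marks an adjusted p under 0.05 over all genes. In this fit over all groups, calls are few before 48 h and cover all 9 genes at 48 h, where Slc1a4 (2.34) and Slc7a5 (2.22) changed most.

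At 48 h all 9 were higher with IL6 and TGFb, where 53% of all genes were called and 27.6% were higher. Their summed level was 2674, 2712 and 2502 CPM with the cytokines and 1938, 1166 and 992.8 CPM without, so that the groups did not overlap. The members' median change was 1.00, against -0.03 for all genes. Slc7a5 was at 593.6, 623.6 and 531.4 CPM against 229.8, 109.9 and 75.4 CPM, a change of 2.22 ± 0.17 (adjusted p = 1.88e-14), and Slc3a2 at 269.4, 269.1 and 239 CPM against 123.5, 67.7 and 73.5 CPM, a change of 1.59 ± 0.14 (adjusted p = 4.1e-13). Course 1 was the highest Th0 library for both. Slc1a4 changed by 2.34 ± 0.23, Slc7a11 by 1.47 ± 0.33, Slc7a1 by 1.00 ± 0.18, Slc7a6 by 0.90 ± 0.13, Slc38a2 by 0.60 ± 0.16 and Slc38a1 by 0.45 ± 0.09. Slc1a5 changed by 0.68 ± 0.20 (adjusted p = 0.00331), but its libraries overlapped, at 435.2, 446 and 417 CPM against 478.9, 215.9 and 188.1 CPM, and it was not called without course 2 (0.47, adjusted p = 0.226) or course 3 (0.47, adjusted p = 0.182). Without the course 1 Th0 library all 9 were called, Slc1a5 at 1.09 ± 0.17, where 8222 of 14671 genes were called. With only the libraries compared, 6 were called, without Slc1a5, Slc38a1 and Slc7a1, where 4841 of 12093 genes were called.

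At 72 h 4 of 9 were higher (46.3% of all genes called, 22.7% higher): Slc7a5, Slc3a2, Slc1a4 and Slc7a6. Slc7a5 was at 409.8, 387.6 and 367.4 CPM against 166, 148.6 and 158.8 CPM, even in both groups, a change of 1.29 ± 0.17 (adjusted p = 4.04e-08). Slc3a2 changed by 1.01 ± 0.14 (adjusted p = 6.08e-08), at 186.5 ± 10.6 against 93.2 ± 18.7 CPM. Slc1a4 changed by 1.496 ± 0.23, a call lost with a block for course and only the libraries compared (1.48, adjusted p = 0.0642). Slc7a6 changed by 0.53 ± 0.13 (adjusted p = 0.000723) with overlapping libraries, course 1 of Th0 being at 93.7 CPM and the other two at 53.3 and 53.4 CPM, and was not called without course 2 (0.39, adjusted p = 0.138), without course 3 (0.43, adjusted p = 0.0829) or with only the libraries compared (0.51, adjusted p = 0.161).

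Several values at 72 h moved with the course 1 Th0 library. Slc1a5 was at 558 CPM in Th0 course 1 at 72 h and at 238 and 242.9 CPM in courses 2 and 3, against 400.9, 415.2 and 393.4 CPM with cytokines. Its change was 0.34 ± 0.20 (adjusted p = 0.16) with all libraries and 0.74 ± 0.17 (adjusted p = 0.000282) without that one. Slc7a6 was at 0.79 ± 0.11 without it. Slc38a2 ran the other way, at 146.3 CPM in Th0 course 1 and 260.1 and 256.8 CPM in the others, and was at -0.36 ± 0.15 (adjusted p = 0.0311) without it, in place of -0.09. In all, 6 of 9 were called without that library, 5 higher and Slc38a2 lower, where 8251 of 14646 genes were called. Slc7a1 and Slc38a1 changed by 0.04 ± 0.18 and -0.13 ± 0.09 with all libraries, neither of them called. Slc7a11 was at 0.72 ± 0.33 (adjusted p = 0.0681), at 3.01, 3.18 and 3.94 CPM against 1.44, 2.22 and 1.92 CPM without overlap. It was called with a block for course over all groups (adjusted p = 0.0312), with only the libraries compared (0.049) and in DESeq2 (0.0375).

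**Figure D5:**
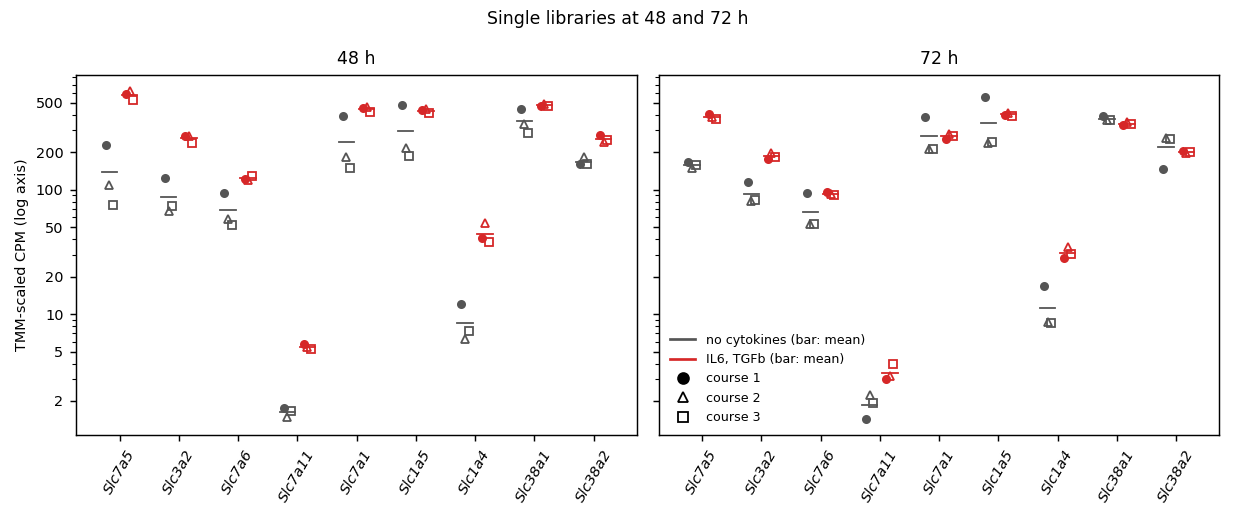
Single libraries of the Th0 cultures (grey) and the cultures with IL6 and TGFb (red) at 48 h (left) and 72 h (right), in TMM-scaled CPM on a log axis; filled circles are course 1, open triangles course 2 and open squares course 3, and bars are means. Course 1 of Th0 is apart from courses 2 and 3 for several genes, as for Slc1a5 at 558 against 238 and 242.9 CPM at 72 h.

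Markers of other cells moved with these late comparisons. The summed level of 8 B cell markers was 208.8 to 279.8 CPM in Th0 and 21.6 to 27.9 CPM with IL6 and TGFb at 24 h, 118.4 to 416 against 12.6 to 14.7 CPM at 48 h and 100.6 to 461.6 against 13.01 to 23.3 CPM at 72 h. Nearly all of it was Ighm, at 96.4, 455 and 386.9 CPM in the Th0 libraries at 72 h. Pax5, a defining transcription factor of B cells, was at most 0.49 CPM there, and none of the 8 was at 0 in every library. The summed level of the 2 CD8 genes was 32.8 to 40.7 against 1.98 to 2.65 CPM at 24 h and 9.70 to 13.3 against 5.0 to 6.03 CPM at 72 h. Nearly all of it was Cd8b1, at 31.5 to 39.5 CPM in Th0 at 24 h, where Cd8a was at 0.92 to 1.26 CPM. The 10 myeloid markers ran the other way, at 24.1 to 28.7 CPM in Th0 against 42.1 to 43.1 CPM at 24 h, 31.6 to 34.2 against 45.3 to 48.3 CPM at 48 h and 36.7 to 48.3 against 53.7 to 60.8 CPM at 72 h. Most of this sum was 1 gene, Cst3, at 19.3 to 24.0 against 36.3 to 37.8 CPM at 24 h. At 72 h Cst3 was at 32.7 to 41.1 against 50.5 to 57.1 CPM. Itgam was higher in Th0 at 72 h, at 0.20 to 0.85 against 0.14 to 0.16 CPM. The 7 NK and γδ T cell markers summed to 7.52 to 34.3 CPM in Th0 at 72 h against 2.37 to 3.12 CPM. In the course 1 Th0 library at 72 h this was nearly all Nkg7, a gene of cytotoxic granules (33.6 CPM, at most 0.78 CPM in the other two), while the γδ T cell genes Trdc and Tcrg-C1 were lower there (0.67 and 0 CPM) than in the other two (2.60 to 4.64 CPM). Their part in the transporter differences was not tested.

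Whether the cytokine difference was larger at 72 h than at 24 h was tested as the difference of the 2 effects. From 24 to 72 h it grew by 0.92 ± 0.25 for Slc7a5 (adjusted p = 0.0044) and by 0.82 ± 0.20 for Slc3a2 (adjusted p = 0.0015), 2 of 9 members, where 21.6% of all genes were called and 12.6% were higher. Slc7a5 had been at 0.37 ± 0.17 at 24 h and Slc3a2 at 0.19 ± 0.14, neither called with all groups in the fit and both called with only the libraries compared. For both genes the effect was larger at 48 h than at 72 h, so the growth was not steady. For Slc1a4 the growth was 0.34 ± 0.32 (adjusted p = 0.524). Slc7a11 had the largest growth of the 9, at 1.20, not called with all groups in the fit and no block for course. Slc7a11 was called with that block (adjusted p = 0.0222), with only the libraries compared (0.00736), with a pseudocount of 0.1 (0.0372) and in DESeq2 (0.0279). Without course 2 neither Slc7a5 nor Slc3a2 was called, with 0.82 for Slc7a5 (adjusted p = 0.177) and 0.68 for Slc3a2 (adjusted p = 0.106). Without course 3 Slc3a2 was at 0.77 (adjusted p = 0.0912). Without the course 1 Th0 library at 72 h 5 were called, where 5051 of 14646 genes were. These were Slc1a5 (1.04), Slc3a2, Slc7a5 and Slc7a6 (0.45) upward and Slc38a2 (-0.58) downward.

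Each culture was also compared with itself between 24 and 72 h. Without cytokines 6 of 9 fell (51.6% of all genes called, 24.6% lower), Slc7a5 by 1.02 ± 0.17 and Slc3a2 by 0.94 ± 0.14 on the log2 scale, with Slc1a5, Slc7a6, Slc7a1 and Slc38a1 at -0.75, -0.70, -0.47 and -0.26. Without the course 1 library of Th0 at 72 h 8 were called (8577 of 14646 genes), with Slc1a5 at -1.15, Slc7a6 at -0.96, Slc7a1 at -0.75, Slc1a4 at -0.65 and Slc38a2 at 0.51. Without course 2 or course 3 there were 3 (4108 of 14339 and 5081 of 14340 genes called), and 2 with only the libraries compared (3064 of 12075). With IL6 and TGFb, 2 of 9 fell and 1 rose (56.4% of all genes called). Slc7a6 fell by 0.52 ± 0.13 and Slc38a1 by 0.39 ± 0.09 on the log2 scale, while Slc7a11 rose by 1.15 ± 0.33 (adjusted p = 0.0027), from 1.03, 1.23 and 1.48 CPM to 3.01, 3.18 and 3.94 CPM. Slc7a5 was at -0.10 ± 0.17 and Slc3a2 at -0.13 ± 0.14, not called. With only the libraries compared 6 were called there, 5 lower and Slc7a11 higher, where 9213 of 12092 genes were called.

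The 3 cocktails were followed in separate cultures, which share no library with courses 1 to 3. Their libraries came from the same 3 courses and were fitted as independent, although libraries of a course moved together between cocktails. The SE and p-values of means over the 3 cocktails, here and below, may therefore be too small. As the mean of the 3 cocktails against their own 0 h, 8 of 9 were higher at 2 h (76.9% of all genes called, 35.7% higher), and Slc7a11 was at 0.33 ± 0.22 (adjusted p = 0.168). Without TMM scaling 34.6% of all calls were higher in place of 46.4%. At 24 h 7 were higher and Slc38a2 lower (82.9%, 42.2%), and at 72 h 8 were higher and Slc38a2 lower (84.6%, 44.7%). At 2 h Slc7a5 had risen by 3.66 ± 0.11, Slc38a1 by 3.04 ± 0.07 and Slc3a2 by 2.97 ± 0.08. At 72 h Slc1a4 was 3.81 ± 0.15 above 0 h and Slc7a5 2.45 ± 0.11. Slc38a2 was at -0.51 ± 0.07.

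Between 24 and 72 h in the cocktails 2 of 9 rose and 6 fell (76.9% of all genes called), with Slc7a11 up by 1.21 ± 0.16, Slc1a4 up by 0.39 ± 0.11, and Slc7a6 by 0.58 ± 0.03 and Slc38a1 by 0.54 ± 0.05 lower. The other falls were of 0.11 to 0.30 on the log2 scale, and Slc7a5 was at -0.13 ± 0.08 (adjusted p = 0.13). The call of Slc38a2 (-0.11 ± 0.05, adjusted p = 0.0473) was lost without course 5 (-0.06) or course 6 (-0.09) and was -0.20 without course 4, and that of Slc3a2 (-0.13 ± 0.06) was lost without course 5 (-0.10). Both were lost in DESeq2 and without a filter.

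In each of the 3 cocktails the Slc7a11 libraries of 4 and 6 h overlapped. With IL21 it was at 102.4, 109.2 and 114.4 CPM at 4 h and at 102, 110.5 and 118 CPM at 6 h, and with both cytokines at 119.3, 99.9 and 121.5 CPM and at 95.2, 102.5 and 112.3 CPM. With IL6 and TGFb alone it was at 84.6 ± 15.2 CPM at 4 h and 39.1 ± 24.9 CPM at 6 h, where course 3 at 6 h (67.7 CPM) overlapped course 1 at 4 h (67.6 CPM). At 12 h it was at 5.35 to 5.98 CPM on average in the 3 cocktails. The course set and the added cytokine cannot be told apart in this comparison, and it was not tested.

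The cocktails were compared with each other later on, and none with IL6 and TGFb alone. Over the mean of 24, 48 and 72 h, 0 of 9 members were called for IL1b against IL21 (11.4% of all genes called), 0 for both against IL21 (6.78%) and 0 for both against IL1b (0%), in limma, edgeR and DESeq2. At an unadjusted p under 0.05 limma had 3, 2 and 0 members, and for both against IL1b 213 of all genes. The closest was Slc7a5, at 450.6 CPM with IL1b and 391.5 CPM with IL21, a change of 0.22 ± 0.08 (adjusted p = 0.0504). Libraries of a course moved together here. With a block for course 2 members were called for IL1b against IL21 (1996 of 14859 genes), Slc7a5 at 0.22 ± 0.08 (adjusted p = 0.0435) and Slc3a2 at 0.15 ± 0.06 (adjusted p = 0.0499). With the block and only the libraries compared 3 were called (2628 of 12796 genes), with Slc7a1 at 0.17 ± 0.04. In that last fit Slc7a1 was called for both against IL21 as well (0.14 ± 0.03, adjusted p = 0.0176). For both against IL1b the 95% interval of the log2 difference was -0.19 to 0.12 for Slc7a5 and -0.37 to 0.25 for Slc7a11.

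Over the 47 group means, Slc7a1 and Slc7a5 had the most similar log2 levels of any pair of members (r = 0.955), followed by Slc7a5 and Slc7a6 (0.946) and Slc7a1 and Slc1a5 (0.944). Those of Slc38a2 with the other 8 ran from -0.511 with Slc1a4 to 0.509 with Slc3a2. These correlations are descriptions: the groups are successive times of a few cultures and share one scaling, so they are not independent. Of 9125 genes compared, the 3 most like Slc7a5 were Eif2s2 (r = 0.986), a subunit of a translation initiation factor, and Tars (0.981) and Nars (0.978), the threonine and asparagine tRNA synthetases. Those most like Slc1a4 were Eprs (0.966), the glutamate and proline tRNA synthetase, Xpot (0.965), which exports tRNA from the nucleus, and Fam60a (0.960). Slc38a2 was most like Ier2 (0.981), an immediate early gene, Ccnl1 (0.971) and Rsrc2 (0.970). Slc7a11 was most like Hmox1 (0.915), the heme oxygenase of the antioxidant response, Samd4 (0.893) and Rab11fip3 (0.893). The nearest gene to Slc7a1 was Map2k3 (0.973), to Slc7a6 Naa25 (0.988), to Slc3a2 Rnf20 (0.947) and to Slc38a1 Gnl3l (0.964).

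The other genes of amino acid supply were read from lists. Of all genes tested, 35.9% were higher and 36.8% lower at 24 h in Th0 against 0 h, and 22.7% and 23.6% at 72 h with IL6 and TGFb against Th0, so a list's count near these shares is not a result about the list. Of 28 other plasma membrane amino acid transporters 13 were expressed enough to test. At 24 h without cytokines 5 of these 13 were higher than at 0 h and 3 lower. Slc16a10, an aromatic amino acid carrier, rose by 1.10 ± 0.17, and Slc43a2 (LAT4), a neutral amino acid carrier, fell from 73.3 ± 1.501 to 20.2 ± 1.44 CPM (-1.84 ± 0.16). With IL6 and TGFb at 72 h 7 of 13 were higher than in Th0 and 0 lower, with a median change of 1.00 against -0.05 for all genes. Among them Slc7a3 (CAT3), a relative of Slc7a1, was at 20.3 ± 3.08 against 1.09 ± 0.71 CPM (3.78 ± 0.26), Slc6a9, a glycine carrier, at 10.7 ± 0.76 against 1.14 ± 0.58 CPM (2.83 ± 0.25), and Slc16a10 at 68.1 ± 12.9 against 17.3 ± 1.84 CPM (1.93 ± 0.17). Without TMM scaling 38.6% of all calls at 72 h were higher in place of 49%, and at 48 h 38% in place of 52%, with the median of all genes at -0.13 and -0.15.

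Of 17 lysosomal and intracellular carriers tested, 4 were higher and 9 lower at 24 h in Th0, with the mitochondrial aspartate and glutamate carrier Slc25a13 up by 4.11 ± 0.25 and the lysosomal carriers Slc36a1 and Slc38a9, which take part in amino acid sensing, down by 2.17 ± 0.16 and 1.21 ± 0.15 on the log2 scale. At 72 h with the cytokines 7 were higher and 3 lower. Of 27 genes of mTORC1 and amino acid sensing, 12 were higher and 6 lower at 24 h in Th0. Sesn2, a leucine sensor induced by amino acid shortage, was up by 3.90 ± 0.32, and its relatives Sesn1 and Sesn3 were at -2.46 ± 0.21 and -1.30 ± 0.18. At 72 h with the cytokines 8 were higher and 5 lower, with Rragd, a Rag GTPase, at 1.98 ± 0.31, Sesn3 at 1.41 ± 0.18 and Sesn1 at -1.04 ± 0.21.

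Of 22 amino acid-using enzymes 19 were higher and 2 lower at 24 h in Th0, with a median change of 1.91 against -0.03 for all genes. Bcat1, which starts the breakdown of leucine and its relatives, rose from 2.14 ± 1.38 to 255.6 ± 63.0 CPM (6.76 ± 0.58), Asns, which makes asparagine, rose by 3.61 ± 0.32 and Psat1, of serine synthesis, by 3.49 ± 0.16. At 72 h with the cytokines 12 were higher and 2 lower, with Gls2, a glutaminase, at 34.5 ± 2.14 against 4.05 ± 4.02 CPM (3.30 ± 0.31), Asns at 106 ± 6.46 against 17.02 ± 10.2 CPM (2.75 ± 0.32) and Pycr1, of proline synthesis, at 2.48 ± 0.18. Of 17 genes of glutathione and cystine handling 11 were higher and 3 lower at 24 h in Th0, with Txn1, thioredoxin, at 2.71 ± 0.08 and Txnrd1, its reductase, at 2.12 ± 0.09. At 72 h with the cytokines 8 were higher and 4 lower, with Hmox1 at 2.19 ± 0.45 and Gclm, a subunit of the enzyme that starts glutathione synthesis, at -0.47 ± 0.14. Both were uneven in Th0: Hmox1 was at 14.2 ± 1.44 against 3.65 ± 3.80 CPM. Gclm was at 32.3 ± 1.86 against 46.05 ± 12.95 CPM, with overlapping libraries. Of 15 transcription regulators linked to these genes 4 were higher and 7 lower at 24 h in Th0, Myc among the former (1.23 ± 0.19) and Mxd4, a Myc antagonist, among the latter (-2.82 ± 0.30). At 72 h with the cytokines 11 were higher and 1 lower, with Hif1a at 1075 ± 34.0 against 190.6 ± 36.0 CPM (2.504 ± 0.13) and Mxi1 at 2.76 ± 0.20.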

How the data were processed

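Transcript levels of 141 libraries were analysed. The deposited table holds CPM made by the authors, which are read counts scaled to the library total, with every column summing to 1000000 for 46517 genes. Per the submitters' processing notes TopHat and HTSeq were used, with the builds mm9 and GRCh37; versions, settings and strand handling are not given in the sources used here. Every value above 0 (100%, tolerance 0.001) was a whole multiple of 1 read, and all 37 mitochondrial genes were listed without reads. The transporters and the gene lists were chosen with earlier results of these data known.

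CPM were scaled by TMM factors (0.779 to 1.18). limma-trend (limma 3.58.1, R 4.3.3) was fitted to log2 of CPM plus 0.5, over all groups of courses 1 to 3 (14695 genes, 38 residual degrees of freedom) or of courses 4 to 6 (14859 genes, 56), for genes reaching 1 CPM in 3 or more libraries, with Benjamini-Hochberg adjustment over all genes and a threshold of 0.05. Alternatives were edgeR 4.0.16 and DESeq2 1.42.0 on the recovered reads, no TMM scaling, a pseudocount of 0.1, no filter, only the libraries compared, a block for course, and each course left out. On the recovered reads edgeR called 10074 genes for Th0 at 2 h against 0 h and 7206 for IL6 and TGFb at 72 h, against 10166 and 6803 in limma.

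Named genes were all 9 transporters, from each list up to 3 called genes in each direction with at least 5 CPM, and the 3 genes most like each transporter. Some genes that these rules name are not reported here. Exon lengths came from GENCODE M21. Whether same-numbered libraries pair was checked by correlating deviations of libraries from their group mean. All 3 courses exceeded 0.1 for IL6 and TGFb at 0.5, 1, 2, 4 and 12 h (lowest 0.126, 0.389, 0.405, 0.234 and 0.307), for the cocktails at 2 h (lowest 0.169) and for the 3 comparisons between cocktails (lowest 0.517, 0.517 and 0.458), and not elsewhere.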

Additional observations from a re-analysis of the deposited data

Results flagged for a closer look

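The effect of IL6 and TGFb on 2 members differed between 24 and 72 h by a test of the difference itself. For Slc7a5 it was 0.923 larger at 72 h on the log2 scale and for Slc3a2 0.817 larger, and these are the 2 chains of the same transporter. Slc7a5 was higher with the cytokines in 3 of 3 courses at both times. Of all genes tested, 21.6% differed by the same test. Without replicate 2 neither was called (adjusted p = 0.177 for Slc7a5 and 0.106 for Slc3a2), and without replicate 3 Slc3a2 was not called (adjusted p = 0.0912). Growth was not particular to these chains: that of Slc7a11 was larger, at 1.203, and was called only under some alternatives.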

How the results depend on the processing

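Of 95 calls of members over 23 comparisons, 72 kept their call and direction under every alternative run, 23 lost the call under at least 1, and 0 reversed. For the counts of members called, leaving out 1 course gave 5 to 8 for Th0 at 72 h against 0 h. Of all genes, 14278 to 14340 were tested in such fits, and 8513 to 8783 were called for that comparison. For IL6 and TGFb against no cytokines leaving out 1 course gave 0 to 2 at 1 h, 0 to 1 at 4 h, 0 to 3 at 6 h, 0 to 1 at 12 h, 1 to 3 at 24 h and 3 to 7 at 72 h. Of all genes 533 to 1135, 229 to 751 and 278 to 761 were called at 1, 4 and 6 h. At 12, 24 and 72 h 736 to 1492, 2326 to 3723 and 3866 to 8250 were called. Leaving out 1 course gave 0 to 7 for the growth of that effect from 24 to 72 h (1326 to 5149 of all genes). It gave 3 to 8 for Th0 at 72 h against 24 h (4108 to 8641 of all genes). Without the course 1 Th0 library at 72 h, an alternative chosen after seeing the data, the counts were 8 for Th0 at 72 h against 0 h (8937 of 14646 genes called) and 5 for the growth of the effect (5051 of 14646). With only the groups compared they were 2, 4, 3 and 7 for IL6 and TGFb at 4, 6, 12 and 24 h, 2 for Th0 at 72 h against 24 h and 6 for IL6 and TGFb at 72 h against 24 h. Of all genes 1254 of 11570, 1779 of 11765, 2539 of 11433 and 5302 of 11919 were called at 4, 6, 12 and 24 h. Between 24 and 72 h 3064 of 12075 were called for Th0 and 9213 of 12092 for IL6 and TGFb. With the replicate block as well the counts of members were 2, 3, 3 and 4 at 0.5, 1, 2 and 4 h, 5, 6 and 7 at 6, 12 and 24 h and 2 at 72 h, 0 for Th0 and 5 for IL6 and TGFb at 72 h against 24 h, 3 for IL1b against IL21 and 1 for both against IL21. Of 11433 to 12482 genes tested, 353, 2322, 4149 and 2557 were called at 0.5, 1, 2 and 4 h. At 6, 12, 24 and 72 h 2884, 4482, 6181 and 1117 were called. For Th0 at 72 h against 24 h 0 of 12075 genes were called, so its 0 is not a result about the members. For IL6 and TGFb there 9299 of 12092 were called, for IL1b against IL21 2628 of 12796 and for both against IL21 1633 of 12681. The replicate block over all groups gave 2 for IL1b against IL21 (1996 of 14859 genes called), as did leaving out TMM scaling (1877 of 14859). The block moved no other count by over 1.5 times. At 1 h the count was 0 without a filter (1257 of 31710 genes called) and 2 in DESeq2 (1113 of 14695). At 24 h it was 1 without TMM scaling (4000 of 14695), without a filter (3637 of 31710) and in DESeq2 (4070 of 14695). The fits with only the groups compared have fewer samples and take the spread from those groups alone, and they gave more calls at some times and fewer at others. The cause of the changes in count was not tested. Depth limits Slc7a11 and Slc1a4 most, since their naive levels of about 1 to 3 CPM rest on few reads.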
